A study of Mus musculus with 25 samples.

Results

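The RNA of unexposed C57BL/6J sperm (C57.CTL.F1) was described as a level, with no exposure contrast. C57.CTL.F1 comprised 5 of the 25 libraries of the series, and its members were the 24308 of 24358 listed genes whose estimated count had the status OK in this condition. The study asked how prenatal exposure to di-(2-ethylhexyl) phthalate (DEHP), a plasticizer that disturbs androgen signalling, alters the RNA of sperm in a sensitive and a resistant inbred mouse strain. C57.CTL.F1 were C57BL/6J males, 14 weeks old, born to females that were given corn oil alone by mouth from embryonic day 9 to embryonic day 19. The conditions set beside it were C57.D300.F1 (C57BL/6J, mothers given 300 mg/kg/day DEHP in corn oil over the same days), C57.D300.F2 (the generation after it), FVB.CTL.F1 (FVB/N, vehicle) and FVB.D300.F1 (FVB/N, DEHP), each of 5 libraries. Where a value is given for all conditions, C57.CTL.F1 comes first and the other 4 follow in the order just given. The sperm were cells that swam out of incised cauda epididymides, so that fluid and cells of the duct could be carried along, and purity was judged by microscopy before extraction and by the lengths of the reads after sequencing. The labels mark 10 libraries as re-analysed, which were those of both C57BL/6J F1 conditions, and the other 15 were new.

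The processed table held 1 value per gene and condition, an estimated fragment count made by the authors from the 5 libraries together. No single-library value was analysed here, so no standard deviation between mice, replicate check or test could be given for any level below, and differences between conditions were not tested. The authors' table gave a variance for each count, and its square root divided by the count is called the model CV. It is the spread their model assigned, not one measured here. The median model CV was 0.276 over the 16459 genes of at least 10 counts. In bulk RNA of this kind, fewer cells of a type and less RNA per cell cannot be told apart.

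Mature sperm are taken to be transcriptionally silent: the histones are largely replaced by protamines, the cytoplasm is shed, and the RNA that is carried is in large part a remnant of spermatid transcription. Sperm then pass through the epididymis, whose epithelium secretes proteins and vesicles holding RNA that can be taken up or can adhere. Only at ejaculation are they mixed with secretions of the seminal vesicles and other glands. The sperm used here were taken from the cauda epididymis, before that step. MicroRNAs are short guides that pair with messenger RNAs through the seed near the 5′ end. Small nucleolar RNAs (snoRNAs) chiefly guide the chemical modification of ribosomal RNA.

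The short RNAs with the highest counts are shown first, because the upper end of the ranking per length was made of them. The mature sequences of the 2 leading microRNAs, from RefSeq (GRCm38.p6), are written 5′ to 3′ with the seed, bases 2 to 8, in capitals, and that of miR-99b-5p is given as the highest of a related seed.
miR-10b-5p: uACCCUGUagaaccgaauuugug
miR-10a-5p: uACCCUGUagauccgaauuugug
miR-99b-5p: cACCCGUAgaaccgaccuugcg
The miR-10b-5p sequence lies at chr2:74726074-74726096 (plus strand) within the transcribed spans of Hoxd3 and Hoxd4, that of miR-10a-5p at chr11:96317186-96317208 (plus strand), and that of miR-99b-5p at chr17:17830194-17830215 (plus strand). Both miR-10 sequences carry the seed ACCCUGU. They differ at 1 base, U12A from miR-10a-5p to miR-10b-5p, counted from 1 at the 5′ end. A count belongs to the whole hairpin gene and did not separate the arms.

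C/D box snoRNAs are known chiefly as guides of 2′-O-methylation of ribosomal RNA. The 4 highest are written as the gene sequence on the RNA strand (GENCODE M21, GRCm38), and their targets were not analysed. The first TGATGA, the letters of the C box, and the last CTGA, those of the D box, are in capitals.
Snord104: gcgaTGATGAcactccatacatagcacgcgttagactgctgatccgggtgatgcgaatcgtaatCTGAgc
Snord83b: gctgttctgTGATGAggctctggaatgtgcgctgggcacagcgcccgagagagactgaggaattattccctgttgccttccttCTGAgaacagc
Snord32a: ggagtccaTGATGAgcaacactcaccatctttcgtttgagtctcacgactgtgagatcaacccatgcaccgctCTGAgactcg
Snord66: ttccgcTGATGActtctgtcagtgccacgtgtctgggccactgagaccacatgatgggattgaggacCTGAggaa
They lie at chr11:106500993-106501062 (plus strand), chr15:80078498-80078591 (minus strand), chr7:45127382-45127464 (minus strand) and chr16:20684239-20684313 (plus strand). Of the 69 C/D entries over 0 counts with a sequence, 48 (69.6%) held TGATGA with CTGA after it, and all 69 held CTGA. The search was on the RNA strand alone, and the letters CTGA also arise where TGATGA follows a C. The 69 sequences were 64 to 238 bases long, with a median of 80 bases.

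The head of the ranking held genes of the late germ cell beside genes best known from the epididymis, the seminal vesicle and the liver. The highest count in C57.CTL.F1 was that of Lars2, the mitochondrial leucyl-tRNA synthetase, at 114042 of a summed count of 8602900 (1.33%). Its model CV was 4.50, and where along the gene these fragments fell was not analysed. Crisp1, a cysteine-rich protein that the epididymis secretes onto sperm, followed at 108274, Alb (serum albumin) at 83529 and Rnf225, a RING finger gene, at 82225. These were counts of fragments not corrected for length, so that a long RNA gathered more of them than a short one at equal molecule number.

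The highest germ cell marker was Smcp, which encodes a cysteine-rich protein of the sperm mitochondrial capsule, at rank 18 with 35149 counts. Odf1 (outer dense fibre) stood at rank 35 with 21227 counts and Prm2 (protamine 2) at rank 36 with 20903. Above these stood Svs4 (63518), Svs2 (54433) and Svs5 (48670), which encode secretory proteins of the seminal vesicle. Gpx3, an extracellular glutathione peroxidase, held 49995 counts, and Spink8, a Kazal-type protease inhibitor, 37904. The plasma protein genes Trf (transferrin), Ttr (transthyretin) and Apob (apolipoprotein B) held 41712, 38822 and 35205 counts.

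Noncoding RNAs took 8 of the first 30 ranks by name. The nuclear long noncoding RNA Malat1 was at rank 6 with 55387 counts and Gas5, a host gene of snoRNAs, at rank 14 with 38336. Mir10b stood at rank 10 (48454.5), Snord104 at rank 19 (33771), Rnu12, the U12 RNA of the minor spliceosome, at rank 21 (32465), Snora74a at rank 22 (31273), Mir10a at rank 23 (31190) and Snord83b at rank 30 (25518). The other members of the first 30 were Cuzd1, Pate4, Itm2b, Mup20, 1200014J11Rik (now named Ncbp3), Fgg, Mrgpra6, Eef1a1 and Ltf, between 42582 and 27738 counts. Mrgpra6 is annotated as a transcribed pseudogene, although its name places it among coding genes.

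The precision of these leading counts was uneven. In 12 of the 30 the model standard deviation was above the count itself, and this held for 19 of the first 100. The model CV was 7.43 for Svs4, 7.51 for Svs2, 7.52 for Svs5, 7.04 for Pate4, 4.50 for Lars2, 4.11 for Alb and 2.29 for Crisp1. It was 0.644 for 1200014J11Rik, 0.636 for Ltf and 0.85 for Smcp. Altogether 563 genes of at least 10 counts had a model CV above 1, and they held 11.4% of the summed count.

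**Figure D1:**
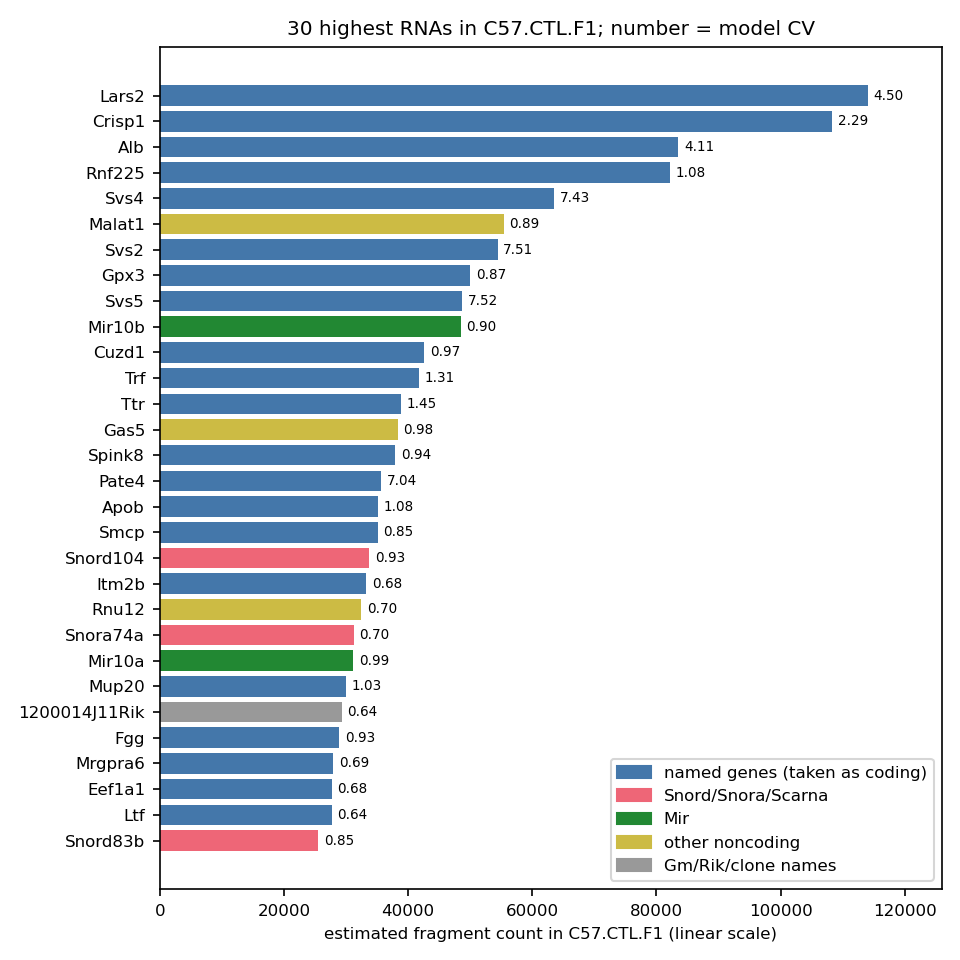
Estimated fragment counts (linear axis) of the 30 highest RNAs in C57.CTL.F1, 1 bar per gene, coloured by RNA class, with the model CV written at the end of each bar. Lars2 and Crisp1 reach 114042 and 108274 counts, and the bars of Svs4, Svs2, Svs5 and Pate4 carry model CVs above 7.

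The same genes were not at the same ranks elsewhere. The seminal vesicle gene Svs4, with 63518 counts in C57.CTL.F1, had 28.8, 168.1, 199.8 and 119.0 in the other 4 conditions in order. Alb had 83529, 100464, 2559, 524.2 and 348.7 counts over the 5 conditions. Svs4 was thus high in C57.CTL.F1 alone, and Alb in both conditions labelled as re-analysed.
Smcp had 35149, 31101, 10099, 1799 and 1784 counts in the same order of conditions, lowest in FVB/N. Mir10b had 48454.5, 40273, 88039, 5222 and 8195 counts, also lowest in FVB/N. Malat1 and Gpx3 were among the first 30 of all 5 conditions. Of the first 30 genes of C57.CTL.F1, 21 were also among the first 30 of C57.D300.F1 and 15 among those of each other condition. Of its first 100, 79, 59, 51 and 51 were shared with the other 4 in order. In these comparisons 2, 1, 1 and 0 of the 100 had no usable count in the other condition.

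Correcting for length brought the short RNAs to the front. Per kilobase of annotated exon, the order was Mir10b (712566 counts per kb, from an annotated length of 68 bases), Snord104 (482449), Mir10a (283549), Snord32a (278589), Snord83b (271464), Snord66 (253892), Rnu12 (214999), Snord55 (165582), Snora74a (159555) and Snord4a (151652). The median over all genes with the status OK was 17.2 counts per kb. Of the first 100 genes per kb, 50 were snoRNAs, 29 named coding genes, 11 microRNAs, 7 other noncoding and 3 genes of undecided name. Among genes with at least 200 bases of exon, a selection made after their values were seen, the order per kb was Svs4 (86892), Crisp1 (76465), Svs5 (75341), Spink8 (46169), the beta-defensin gene Defb28 (43219.6), Rpph1, the RNA of RNase P (40550.5), Smcp (38499) and Alb (35666).

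The count was spread over many genes. The 10 highest genes held 8.24% of the summed count, the 30 highest 15.96%, the 100 highest 27.8%, the 1000 highest 56.7%, the 5000 highest 85.3% and the 10000 highest 96.5%. Of the total, 25% was held by 78 genes, 50% by 633 genes, 75% by 2897, 90% by 6487 and 99% by 13258. No single RNA therefore dominated the genes with a usable count.

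The fall in count with rank grew steeper along the list. Rank 100 was held by Sva (9590.2 counts), rank 1000 by Magt1 (1315), rank 5000 by Cbx7 (316.2) and rank 10000 by Aprt (102.0), 11.9, 86.7, 360.6 and 1118 times below rank 1. The slope of log10 count against log10 rank was −0.62 over ranks 1 to 100, −0.85 over ranks 100 to 1000 and −1.13 over ranks 1000 to 10000. The Gini coefficient, which is 0 for equal counts and 1 when 1 gene holds all, was 0.814 over the 22415 genes above 0 counts. The number of equally abundant genes with the same Shannon entropy was 3553.

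By abundance band, the 96 genes of at least 10000 counts held 27.4% of the total with a median model CV of 0.685. The 1348 genes of 1000 to 10000 counts held 35.2% and the 8646 genes of 100 to 1000 counts 34.0%, with median model CVs of 0.283 and 0.246. The 6369 genes of 10 to 100 counts held 3.26%. The median gene had 55.8 counts against a mean of 353.9, and 1893 genes stood at 0. Low genes were thus many but carried little of the RNA.

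Across conditions, the number of genes holding 50% was 633, 811, 785, 659 and 480. The share of the 100 highest was 27.8%, 24.5%, 26.1%, 28.1% and 33.3%. C57.CTL.F1 lay inside the range of the other conditions on both measures. The sets of genes were unlike, however. Lars2 and Crisp1, at ranks 1 and 2 in C57.CTL.F1, had no usable count in C57.D300.F1. Crisp1 also had none in C57.D300.F2 and FVB.CTL.F1.

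**Figure D2:**
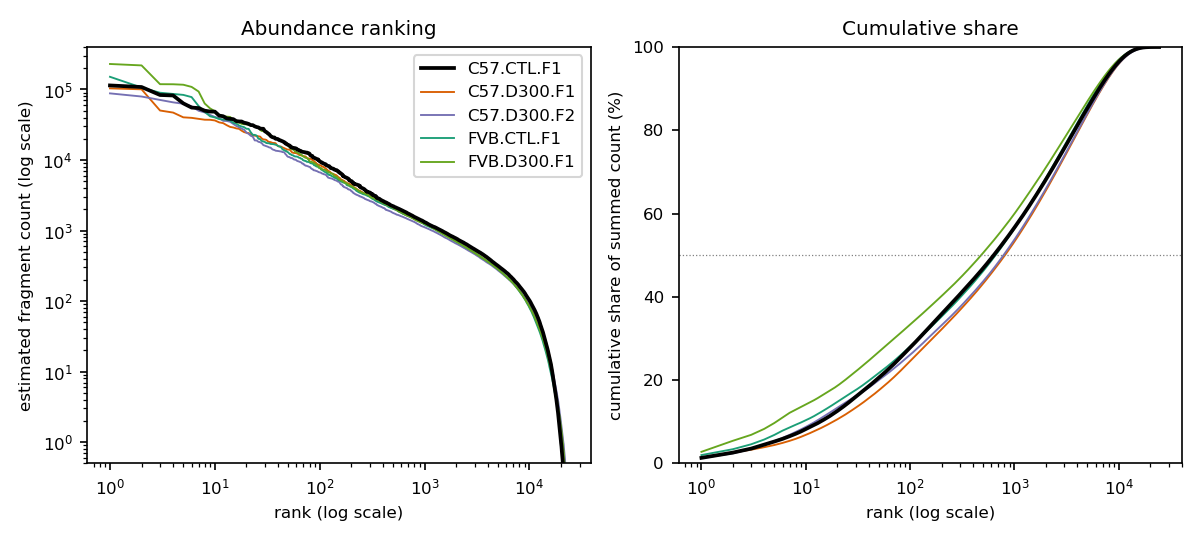
Left, estimated fragment count against rank (both axes logarithmic) for genes of status OK; right, cumulative share of the summed count (%) against rank (log axis), with a dotted line at 50%; 1 line per condition, C57.CTL.F1 in black. The black curve crosses 50% at rank 633, between the crossings of FVB.D300.F1 at 480 and C57.D300.F1 at 811.

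Some loci with many fragments were absent from this ranking. The authors' software withholds a count where too many fragments fall in a locus (status HIDATA), and these 50 genes were listed at 0, so their true counts are unknown and every share here is of the remainder. They were 40 named coding genes, 3 microRNAs, 3 other noncoding genes, 1 snoRNA and 3 genes of undecided name. Rn45s, the precursor of ribosomal RNA, was one of them, as was the snoRNA host Snhg1 with Snord22.

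The withheld genes came in groups. A stretch of 972.0 kb on chromosome 11 (GRCm38 86583865 to 87555823) held 15 of them, including Mir21a, Mir301, Vmp1, Cltc and Tex14, and a stretch of chromosome 4 (60066469 to 61782269) held 12 major urinary protein genes. Of the 20 Mup genes listed, only 8 thus had a usable count. In all 5 conditions the same status was given to 24 genes, and 71 had it in at least 1.

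By class, named genes taken as coding made up most of the counted fragments, and small RNAs most of the counts per length. Genes were sorted by symbol. Named genes taken as coding (19364 genes) held 88.0% of the summed count, snoRNAs and small Cajal body RNAs (118 genes) 4.05%, genes with clone-type names whose class the symbol does not tell (3363 genes, such as Gm and Rik) 3.81%, other noncoding RNAs (309 genes) 2.61% and microRNAs (1154 genes) 1.49%. The 95% exact binomial interval was at most 0.0217 percentage points to either side. It treats the estimated counts as whole reads, which they are not, and covers at most counting error. With classes from RefSeq biotypes instead, protein coding genes held 89.2%, snoRNAs 4.03%, long noncoding RNAs 3.50% and microRNAs 1.59%. Of the count under undecided names, 50.5% was annotated protein coding and 37.7% long noncoding. By name, no transfer RNA, mitochondrially encoded, 5S ribosomal or Y RNA entry was listed, and 6 entries that RefSeq annotates as ribosomal RNA all stood at 0, so these classes were not analysed here.

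Per kilobase of exon the order changed. SnoRNAs held 42.1% of the summed counts per kb, named coding genes 30.6%, microRNAs 17.7%, other noncoding RNAs 6.18% and undecided names 3.55%. The median annotated exon length was 3802 bases in coding genes, 93.5 in snoRNAs and 81 in microRNAs. The snoRNA share of counts was 4.05%, 4.17%, 4.67%, 5.68% and 7.35% over the 5 conditions. The microRNA share was 1.49%, 1.62%, 2.72%, 0.881% and 1.35% in the same order. C57.CTL.F1 had the lowest snoRNA share of the 5 conditions and the highest coding share (88.0%, against 86.9%, 85.0%, 84.9% and 81.4%). Crisp1 entered the coding share in C57.CTL.F1 and FVB.D300.F1 alone, and Lars2 in all conditions but C57.D300.F1.

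**Figure D3:**
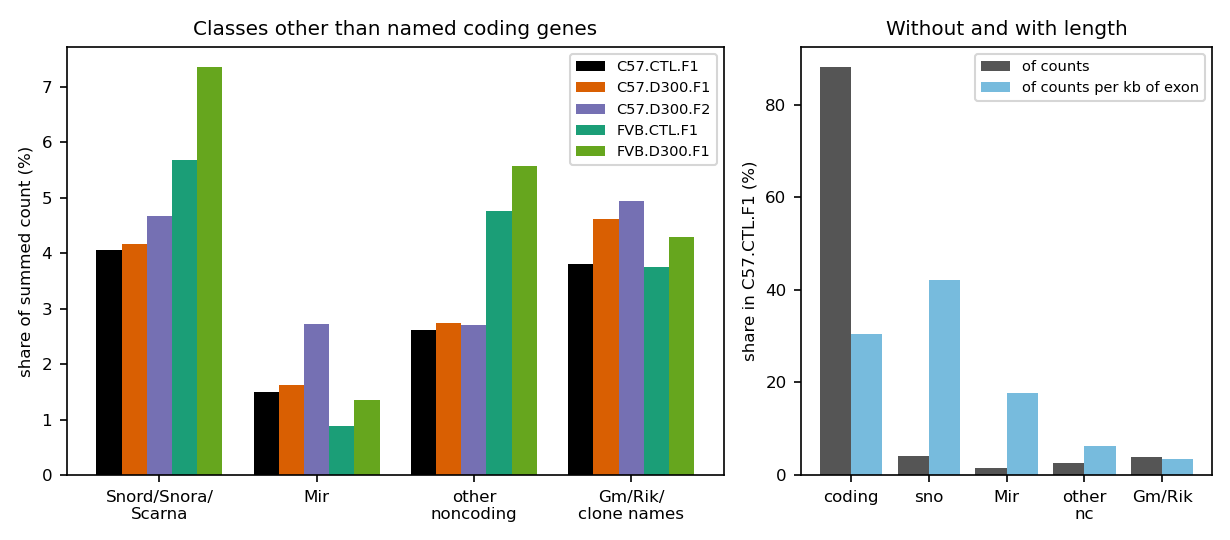
Left, share of the summed count (%) of each class other than named coding genes in the 5 conditions; right, share of each class in C57.CTL.F1 (%) by count and by count per kb of exon. SnoRNAs go from 4.05% of counts to 42.1% of counts per kb and coding genes from 88.0% to 30.6%.

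The microRNA class rested on very few genes. Mir10b and Mir10a, which share the seed shown above, held 37.8% and 24.3% of the class, 62.1% together and 79645 counts. Of the 1154 entries, 541 stood at 0 and 102 reached 10 counts. After the miR-10 pair came, by symbol, Mir6240 (10289 counts), Mir5103 (7293), Mir5099 (4682), Mir6236 (3383), Mir191 (2856), Mir143 (2848), Mir192 (2535) and Mir22 (1978). Gm24148, annotated as a microRNA but counted under undecided names, had 8739 counts. Whether fragments counted for these entries came from other RNAs was not analysed.

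Mir99b, Mir99a and Mir100, which share the seed ACCCGUA, held 1798 counts together. The let-7 family, among the most abundant microRNAs of somatic tissues, summed to 102.7 counts over 11 entries, with Mirlet7i highest at 31.5. The germ-line and epithelial microRNA Mir34c had 408.4 counts and Mir30a 376.2. A RefSeq mature sequence was found for 998 of the 1154 entries, holding 93.5% of the class. Libraries were made from fragmented RNA of all sizes, and a hairpin count does not separate mature from precursor.

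SnoRNAs were broadly present: 111 of 118 reached 10 counts, the median was 816.1 counts, and 9 genes held 50% of the class. Over all 24308 genes, 16459 reached 10 counts and the median was 55.8. C/D box snoRNAs held 2.87% of the total and H/ACA box snoRNAs, which guide pseudouridylation, 1.15%. Snora74a led the H/ACA group with 31273 counts, ahead of Snora75 (14617) and Snora16a (10824). The highest small Cajal body RNA, Scarna10, had 782.3. The model CV exceeded 1 in 23 C/D and 9 H/ACA entries.

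Most snoRNAs lie in introns of other genes and are released when the host transcript is spliced. Of the 111 snoRNAs of at least 10 counts, 102 lay inside a listed gene on the same strand, 32 of them in a ribosomal protein gene. Per kb of exon, which favours short entries, 96 of the 102 were above their host, and the median ratio was 43.1. By count without length, 56 of the 102 were above it. Snord83b had 271464 counts per kb against 2595 for Rpl3, and Snord32a 278589 against 1017 for Rpl13a. Snord66 had 253892 against 429.6 for Eif4g1, and Snora75 109903 against 128.6 for Ncl. The model CV was 1.40 for Rpl3, 2.66 for Rpl13a and 1.05 for Snord32a. It was 0.854 for Snord83b, 0.658 for Snord66 and 0.882 for Snora75. The snoRNA host Snhg12 stood at 10.9 counts per kb, whereas Snord99 and Snora16a within it had 126631 and 79005.

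MicroRNAs too stood above the genes around them per kb. Of 102 microRNAs of at least 10 counts, 51 lay inside a listed gene, 50 were above it per kb, and the median ratio was 16.7. By count without length, 14 of the 51 were above it, so the order per kb rests largely on their short length. Mir10b had 712566 counts per kb and the genes that surround it, Hoxd4 and Hoxd3, 233.3 and 75.9, with model CVs of 7.14 and 10.4. Where exons of 2 genes overlap, the division of reads between them was the authors' estimate.

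**Figure D4:**
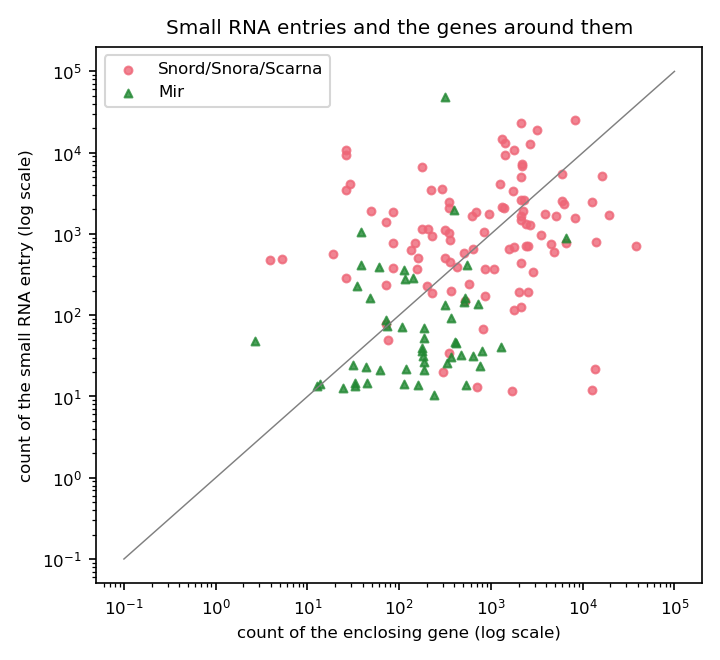
Count of each snoRNA (circles) or microRNA (triangles) of at least 10 counts against the count of the same-strand gene that encloses it, in C57.CTL.F1 (both axes logarithmic, grey line at equal counts). Of 102 snoRNAs 56 lie above the line, and of 51 microRNAs 14.

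Some entries named as coding or long noncoding genes enclose small RNA genes that the table does not list. This was so for 11 of 82 genes with coordinates, microRNAs and snoRNAs aside, among the first 100 (13.4%) and for 75 of 854 among ranks 101 to 1000 (8.78%). Rnf225 encloses an annotated small nuclear RNA gene (Gm26325) and 2900060B14Rik another (Gm22710). Of unlisted snoRNA genes, Gas5 encloses 9, Rpl4 4 and Rpl17 2. How many of their fragments came from the enclosed RNA was not tested.

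Among the remaining noncoding RNAs, 3 genes held 50% of the class count. These were Malat1, Gas5 and Rnu12. The snoRNA host Snhg8 had 19138 counts and Snhg11 231.1, the vault RNA Vaultrc5 13031, Rpph1 12936, Rmrp, the RNA of RNase MRP, 9913, and the paraspeckle RNA Neat1 9899. The U11 RNA Rnu11 had 7200.2 counts, or 53733 per kb against 214999 per kb for its minor spliceosome partner Rnu12. Rnu73b, an entry of 71 bases without a RefSeq biotype, had 3997 counts and was placed here by its symbol alone. It lies at chr3:86140618-86140688 (minus strand), near the C/D box entry Snord73a at chr3:86138791-86138858 (minus strand). The snoRNA class may therefore lack it. Kcnq1ot1, an antisense RNA of an imprinted domain, had 7195 counts over 93092 bases of exon (77.3 counts per kb).

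The label of the cells was checked against marker lists. All 34 germ cell markers reached 10 counts, with a median of 695.7 against 55.8 over all genes, and together they held 1.47% of the summed count. Over all 24308 genes, 16459 reached 10 counts. The liver (45), smooth muscle and connective tissue (15) and epithelial (7) lists also did so in full, with medians of 5540, 5734 and 1893. Smcp, Odf1 and Prm2 led the germ cell list, followed by Tcp11 (9753), the spermatid antizyme Oaz3 (9117) and Odf2 (8150). The fertilization and acrosome genes Izumo1 (38.8), Acr (43.8) and Zpbp (96.9) were near the low end. Meiotic genes held 0.00928%, with Ddx4 highest at 252.1 and Stra8 at 1.46, and markers of testicular somatic cells 0.00277%, with Star at 77.7 and Sox9 at 75.4. Late germ cell genes were thus all detected, and genes of earlier stages were low.

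The liver, seminal vesicle and epididymal lists held more than the germ cell list, and the other lists held less. The 45 liver markers, all of at least 10 counts, summed to 6.14%, the 16 seminal vesicle markers to 3.12% and the 39 epididymal markers to 2.50%. Smooth muscle and connective tissue markers held 0.789%, with Col1a1 (8376), Fn1 (7698) and Acta2 (7041). Prostate and coagulating gland markers held 0.148%, of which Spink5 was 56.3%, while the prostate-defining Pbsn and Msmb stood at 2.74 and 0.351 counts. Epithelial markers held 0.127% and blood and immune markers 0.0919%, with Lyz2 at 3486 and the leukocyte marker Ptprc at 305.7. Without genes of model CV above 1, the seminal vesicle list fell to 0.133% and the epididymal list to 1.40%, under the germ cell list at 1.65%, while the liver list held 3.69%. The part of other tissues in the ranking was not tested.

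The liver list was broad. Its highest members after Alb, Trf, Ttr and Apob were Mup20 (30005), Fgg (28951), Mup3 (21889) and Cps1, an enzyme of the urea cycle (20854), and its lowest was Hamp, the iron hormone hepcidin (387.0). Its share over the 5 conditions was 6.14%, 5.20%, 0.210%, 0.0866% and 0.0656%. Both high values belonged to the 10 libraries labelled as re-analysed. That label cannot be told apart from the combination of strain and generation.

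The seminal vesicle list held 3.12% in C57.CTL.F1 and between 0.0340% and 0.0750% in the other conditions. In 9 of its 16 members the model CV was above 1. Sval1 stood at 0, which allows up to 3 counts for counting error if the estimates are taken as whole reads, and Sval2 and Sval3 at 8.34 and 0.446. The rest lay between 1825 and 63518.

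The epididymal list was led by Crisp1, which made up 50.4% of it. Cd52, a glycoprotein that coats sperm in the epididymis, had 24861 counts, the sperm surface protease-family member Adam7 23918, the carboxylesterase Ces5a 14838, clusterin (Clu) 12898 and Ptgds 11805. Of the 39 members 29 reached 10 counts, as did 16459 of all 24308 genes. Among the 29 were the secreted peroxidase gene Gpx5 (202.2), Defb42 (139.9), Spag11a (77.5) and Cst8 (60.1). The 10 others included Defb12 (7.57), Lcn9 (3.71), Lcn8 (2.40), Lcn5 (1.44) and Cst11 (1.43). Crisp1 had no usable count in 3 of the other conditions, and only FVB.D300.F1 had one. Without it, the list held 1.24%, 1.51%, 2.41%, 2.39% and 3.19% over the 5 conditions, lowest in C57.CTL.F1.

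The germ cell list itself held 1.47%, 1.37%, 0.638%, 0.141% and 0.156% over the 5 conditions. The C57.CTL.F1 sperm were therefore the highest of the 5 in germ cell, liver and seminal vesicle share.

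**Figure D5:**
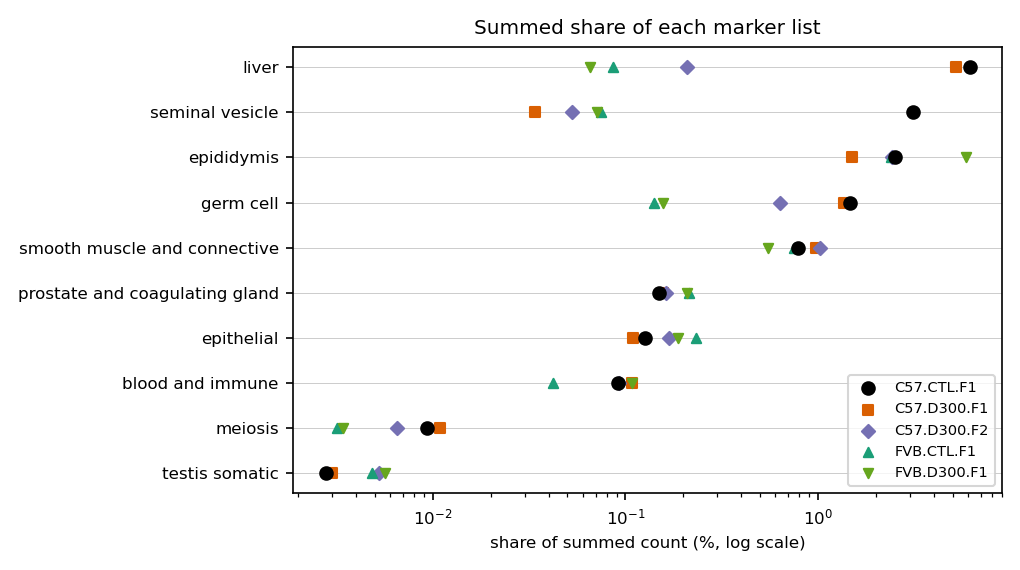
Summed share of the count (%, log axis) of each of the 10 marker lists, 1 symbol per condition, C57.CTL.F1 as black circles. The liver list is at 6.14% and 5.20% in the first 2 conditions and at or under 0.210% elsewhere, and the seminal vesicle list is at 3.12% in C57.CTL.F1 only. The epididymis symbol includes Crisp1 in C57.CTL.F1 and FVB.D300.F1 alone.

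Among the gene families examined, the cytosolic ribosomal proteins held the largest share. They summed to 2.94%, with 101 of 107 of at least 10 counts, and 16 members together held 50% of the family's count. Rpl4 (16137), Rpl17 (13593) and Rplp0 (12488) were highest. Rpl4 and Rpl17 enclose unlisted snoRNA genes, as given above. In 9 members of at least 10 counts the model CV was above 1. Translation factors summed to 1.14%, led by Eef1a1 (27738), Eef2 (13893) and Eef1b2 (6612). Mitochondrial ribosomal proteins held 0.189% over 77 genes, all of at least 10 counts. Respiratory chain genes held 0.827%, led by Atp5b (6635), Cox4i1 (4519) and Atp5c1 (4064), and heat shock and chaperone genes 1.00%, led by Hspa5 (12734), Hspa8 (11459) and Hsp90b1 (7598).

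Sperm structure families were dominated by few genes. Outer dense fibre and sheath genes held 1.03%, of which Smcp was 39.6% and with Odf1 more than 50%. The protamines and transition proteins, which package sperm DNA, held 0.279%. Prm2 alone was 87.1% of these, ahead of Tnp1 (1145), Prm1 (1038), Tnp2 (844) and Prm3 (66.6). Replication-dependent histone genes held 0.0406%, with 33 of 68 of at least 10 counts and Hist1h2bc highest at 1246. Dyneins, motors of the flagellum and of transport, held 0.211%, and the CatSper calcium channel genes 0.0105%, led by Catsper2 (369.8).

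Secreted families were equally uneven. The Svs, Sva, Sval and Spinkl group held 2.47%, the Crisp family 1.30% (Crisp1 108274, Crisp2 3527), coagulation and complement genes 1.41% (Fgg 28951, C3 18109, Fga 15192), apolipoproteins 1.25% (Apob 35205, Apoe 19785, Apoa2 17934) and serpins 0.890% (Serpina1f 19980, Serpina3k 13980, Serpina1e 12996). Spink genes held 0.802%, with Spink8 (37904), Spink1 (14805) and Spink10 (7826) highest. Glutathione peroxidases held 0.678%, with 49995 counts for Gpx3, 6408 for Gpx1, 1618 (model CV 1.54) for Gpx4, a selenoprotein of the sperm capsule, and 202.2 for the epididymal Gpx5. Beta-defensins held 0.282%, of which Defb28 was the largest entry with 17158 counts. Only 2 of 10 lipocalins reached 10 counts, Lcn12 (803.4) and Lcn2 (403.9).

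Most olfactory receptor genes, a family used chiefly in the nose, were at or near 0. Of 1120 olfactory receptor genes, 9 reached 10 counts and 482 stood at 0, and the family held 0.0226%. In contrast, 339 of 367 Zfp zinc finger genes reached 10 counts at a median of 83.2 and a family share of 0.662%, led by Zfp106 (2684), Zfp185 (2209) and Zfp488 (1514). Of 387 solute carrier genes 302 did so, for 1.10%, led by Slco1b2 (3780.4), Slc27a2 (3354) and Slc1a1 (2642). Over all 24308 genes, 16459 reached that level. Cytochrome P450 genes held 0.582%, led by Cyp3a11 (13468), Cyp2e1 (8452) and Cyp2d9 (3968), and collagens 0.535%, led by Col1a1 (8376), Col1a2 (7666) and Col3a1 (7249). The 8 Mup genes with a usable count held 0.614%, with Mup21 (812.4) after Mup20 and Mup3.

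By chromosome, the share of count did not follow the share of genes exactly. Chromosome 2, with 7.63% of the genes of at least 10 counts, held 9.85% of the count with Svs4 highest, and chromosome 9, with 5.66%, held 7.88% with Lars2 highest. The X chromosome, silenced in meiosis, held 2.39% of the count and 3.23% of the genes of at least 10 counts, with Flna (7892), Usp9x (5786) and Huwe1 (5053) highest. The Y chromosome held 0.0240% over 6 genes of at least 10 counts.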

How the data were processed

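Sperm RNA was depleted of ribosomal RNA, fragmented and sequenced on a HiSeq instrument (CASAVA 1.8.2). Per the study's methods the authors removed the adapter, kept reads of at least 18 bases, aligned them to mm10 with TopHat and estimated counts with Cuffdiff. Versions and annotation release are not given in the sources used here. The deposited value is an estimated count, a scaled signal rather than whole reads, with a variance from the authors' model. Of the table's columns 10 were used and 10 not used.

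Genes of status OK in C57.CTL.F1 were ranked, and shares are of their summed count (8602900). Libraries' own depths were not analysed here. Classes came from symbols by pattern. Endings of the pattern for antisense and pseudogene names also caught 63 genes that RefSeq calls protein coding, and these were moved to coding, and 6 host genes of microRNAs (names ending in hg) were moved from microRNAs to other noncoding. Exon lengths (union of GENCODE M21 exons) matched 23947 genes with 99.4% of the count, and RefSeq biotypes 24195 of the listed genes. Hosts were same-strand genes enclosing an entry, that of the longest exon union where there were several. Summaries were computed in Python 3.11.15 (numpy 2.4.6, pandas 2.3.3) and tested on simulated counts.

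Named genes were drawn from a rule, with examples only of the marker lists and of the genes of other status: the 30 highest counts, the 10 highest per kb, the 10 highest microRNAs, 5 highest snoRNAs and other noncoding RNAs, the 3 highest of each family of at least 0.5%, marker list members, genes of other status, and ranks 100, 1000, 5000 and 10000. Others named, such as those of smaller families, Hoxd3 and the hosts, were chosen after their values were seen. The members and lists were chosen with earlier results of these data known. Alternatives were counts per kb, a minimum of 10 counts, removal of the liver and seminal vesicle lists, removal of genes of model CV above 1, RefSeq classes and ranks 30 to 3000 for the slope.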

Additional observations from a re-analysis of the deposited data

How the results depend on the processing

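Of 63 values recomputed under alternatives, 20 stayed within the binomial interval (shares), 1.5 times (gene numbers) or 0.1 (slopes), and 43 moved. Per kb of exon, the 10 highest genes held 33.7% instead of 8.24%, coding genes 30.6%, snoRNAs 42.1%, microRNAs 17.7%, other noncoding RNAs 6.18%, undecided names 3.55%, ribosomal proteins 1.70%, and the liver, seminal vesicle, epididymis and germ cell lists 3.47%, 3.46%, 1.64% and 1.18%. Then 26 genes held 50% in place of 633, and the slope over ranks 100 to 1000 was −1.43 in place of −0.85.

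Without genes of model CV above 1 the 10 highest held 5.34%, coding genes 87.7%, snoRNAs 3.67%, microRNAs 1.65%, other noncoding RNAs 2.93%, undecided names 4.08%, ribosomal proteins 3.09%, and the 4 lists 3.69%, 0.133%, 1.40% and 1.65%. The seminal vesicle share thus rested on genes the authors' model held to be imprecise. Without the liver and seminal vesicle lists these shares were 7.84%, 86.8%, 4.46%, 1.64%, 2.88%, 4.18% and 3.24%, with 2.75% for epididymis and 1.62% for germ cells.

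With at least 10 counts, coding genes held 88.1% and undecided names 3.77%. By RefSeq biotype coding genes held 89.2%, microRNAs 1.59%, other noncoding RNAs 4.92% and unmatched names 0.189%. In alternatives added after the data were seen, the first class pattern gave 87.9% coding and 2.73% other noncoding, the liver list without Alb held 5.17%, and the epididymis list without Crisp1 1.24%. The slope over ranks 30 to 3000 was −0.82.

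No paired analysis was possible because the table holds 1 value per condition, and leaving out libraries was not run for the same reason. Depth limits the low end: a count of 0 allows up to 3 counts if the estimates are taken as whole reads. The 50 withheld genes bound none of the shares, since their counts are unknown.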
